A study of Mus musculus with 3 samples.

Results

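Binding of the nuclear receptor NR2F2 (COUP-TFII) in the mouse fetal testis was examined near 9 genes of basic helix-loop-helix (bHLH) transcription factors: Tcf21, Twist1, Twist2, Hand1, Hand2, Msc, Tcf4, Tcf12 and Tcf3. A peak was taken when the nearest transcription start site (TSS) of a curated RefSeq transcript belonged to 1 of these genes, or when the peak lay within 100 kb of the TSS of such a gene. These rules took 22 of 10069 peaks, at 7 of the 9 genes, and used no count. Both rules took 13 peaks, the nearest TSS alone took 4 and the window alone took 5.

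The bHLH proteins bind DNA as dimers at the E-box, a short site spelled CANNTG. Tissue-restricted members such as Tcf21, Twist2, Hand2 and Msc pair with the widely expressed E proteins encoded by Tcf3, Tcf4 and Tcf12, and Id proteins, which lack the DNA-binding region, take E proteins out of such pairs. Tcf21 marks mesenchymal progenitors of several organs and is known in the embryonic gonad as a repressor of Nr5a1, a gene needed for steroidogenic cells. NR2F2 is an orphan nuclear receptor of interstitial cells that binds repeats of the sequence AGGTCA.

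The chromatin came from E14.5 mouse embryos of the CD-1 stock, whose testes were taken whole, freed from the mesonephros and frozen, with 30 testes pooled. The groups measured were NR2F2 ChIP, with 2 libraries from independent immunoprecipitations with an antibody against COUP-TFII, and input, the chromatin before immunoprecipitation, with 1 library. No genotype other than the CD-1 stock and no treatment was given, and all cell types of the testis were in the pool. The study calls the 2 ChIP libraries biological replicates, and whether each had its own pool of testes was not stated in the sources used here. The edgeR and DESeq2 p-values therefore rest on the spread between these 2 libraries, moderated over all peaks. The binomial p-values that compare the 2 ChIP libraries allow for counting error only. The data hold no RNA levels, so the tissue label could not be set against markers. The deposited values are read counts in the same 10069 windows of 300 bp, with totals of 73251 in the input, 426784 in ChIP replicate 1 and 364261 in ChIP replicate 2, and medians of 7, 37 and 31 counts per peak. The windows were called on the merged ChIP reads, so a ChIP count above the input count was nearly general, with both ChIP counts above the input at 10059 of the 10069 peaks. The depth of the whole libraries is unknown.

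The sequences under the peaks are shown for the Tcf21 gene, whose TSS was the nearest one to 5 peaks, and for the peak with the most ChIP counts at each of Twist2, Hand2, Msc, Tcf12 and Tcf3. Each is the plus strand of GRCm38 (mm10) from RefSeq, 5′ to 3′, and capitals mark the NR2F2 half-site AGGTCA or GGGTCA, on either strand. Distances run from the TSS to the nearer edge of the peak. The peak 2237 bp downstream of the Tcf21 TSS is shown from base 131 of the peak on, without its untranslated part. That cut runs through a half-site at bases 128 to 133, so the sequence shows 1 of the 2 half-sites of the peak in capitals.
Tcf21, 92983 bp upstream, chr10:22913126-22913425: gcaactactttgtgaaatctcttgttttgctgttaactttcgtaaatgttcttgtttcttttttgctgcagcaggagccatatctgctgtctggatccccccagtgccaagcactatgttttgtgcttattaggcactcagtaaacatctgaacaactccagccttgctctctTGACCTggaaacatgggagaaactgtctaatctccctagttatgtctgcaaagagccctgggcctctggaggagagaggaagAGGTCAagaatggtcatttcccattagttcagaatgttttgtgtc
Tcf21, 55511 bp upstream, chr10:22875654-22875953: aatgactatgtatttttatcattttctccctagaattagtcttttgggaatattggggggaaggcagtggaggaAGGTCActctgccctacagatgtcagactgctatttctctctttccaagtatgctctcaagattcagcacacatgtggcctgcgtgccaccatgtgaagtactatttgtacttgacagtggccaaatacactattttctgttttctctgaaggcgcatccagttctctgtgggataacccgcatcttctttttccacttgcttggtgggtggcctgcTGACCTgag
Tcf21, 396 bp downstream, chr10:22819448-22819747: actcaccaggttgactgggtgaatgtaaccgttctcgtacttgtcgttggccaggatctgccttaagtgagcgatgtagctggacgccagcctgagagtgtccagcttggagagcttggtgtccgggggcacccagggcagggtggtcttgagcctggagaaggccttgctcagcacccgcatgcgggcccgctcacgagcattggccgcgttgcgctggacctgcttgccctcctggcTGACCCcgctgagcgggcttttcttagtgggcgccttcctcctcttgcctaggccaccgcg
Tcf21, 2237 bp downstream, chr10:22817737-22817906: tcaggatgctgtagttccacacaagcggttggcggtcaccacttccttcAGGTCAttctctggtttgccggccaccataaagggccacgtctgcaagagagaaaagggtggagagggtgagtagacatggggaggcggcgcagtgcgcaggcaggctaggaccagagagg
Tcf21, 41784 bp downstream, chr10:22778060-22778359: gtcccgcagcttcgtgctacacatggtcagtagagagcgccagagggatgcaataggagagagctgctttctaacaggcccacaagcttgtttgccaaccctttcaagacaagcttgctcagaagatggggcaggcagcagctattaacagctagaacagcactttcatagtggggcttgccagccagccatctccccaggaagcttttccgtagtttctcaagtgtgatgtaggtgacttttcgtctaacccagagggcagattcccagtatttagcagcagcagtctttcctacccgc
Twist2, 113315 bp downstream, chr1:91914776-91915075: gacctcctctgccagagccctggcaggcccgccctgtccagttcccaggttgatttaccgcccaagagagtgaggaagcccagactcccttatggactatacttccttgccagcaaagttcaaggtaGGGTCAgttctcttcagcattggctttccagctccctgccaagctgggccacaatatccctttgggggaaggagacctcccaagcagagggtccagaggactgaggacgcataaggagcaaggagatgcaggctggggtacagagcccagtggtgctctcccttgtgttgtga
Hand2, 20038 bp downstream, chr8:57341021-57341320: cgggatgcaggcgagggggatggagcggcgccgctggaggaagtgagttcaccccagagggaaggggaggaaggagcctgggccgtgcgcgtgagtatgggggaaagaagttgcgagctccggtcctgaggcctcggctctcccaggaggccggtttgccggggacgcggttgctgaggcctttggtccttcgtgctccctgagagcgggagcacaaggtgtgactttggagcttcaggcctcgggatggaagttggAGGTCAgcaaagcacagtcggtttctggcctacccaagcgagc
Msc, 39174 bp upstream, chr1:14795140-14795439: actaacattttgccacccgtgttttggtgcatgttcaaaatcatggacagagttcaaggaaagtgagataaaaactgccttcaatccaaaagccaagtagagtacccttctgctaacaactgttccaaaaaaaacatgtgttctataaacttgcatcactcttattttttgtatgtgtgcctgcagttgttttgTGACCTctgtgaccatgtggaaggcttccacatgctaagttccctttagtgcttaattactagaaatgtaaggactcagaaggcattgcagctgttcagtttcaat
Tcf12, 21584 bp upstream, chr9:72133403-72133702: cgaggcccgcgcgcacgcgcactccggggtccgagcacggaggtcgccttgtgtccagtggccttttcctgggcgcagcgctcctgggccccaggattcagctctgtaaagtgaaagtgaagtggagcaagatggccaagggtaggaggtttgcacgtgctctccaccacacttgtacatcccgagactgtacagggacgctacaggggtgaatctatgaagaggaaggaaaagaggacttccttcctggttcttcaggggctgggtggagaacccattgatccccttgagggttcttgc
Tcf3, 10789 bp upstream, chr10:80444424-80444723: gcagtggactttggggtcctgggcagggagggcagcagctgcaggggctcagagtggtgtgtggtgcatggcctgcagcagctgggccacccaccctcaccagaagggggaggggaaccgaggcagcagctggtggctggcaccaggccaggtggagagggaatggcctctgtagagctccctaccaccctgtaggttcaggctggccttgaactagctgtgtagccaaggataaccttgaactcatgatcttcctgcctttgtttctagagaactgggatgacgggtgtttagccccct
The Tcf21 peaks held 0 to 2 half-sites each. The strongest Tcf3 peak, the strongest Tcf12 peak and the Tcf21 peak 41784 bp downstream held none, so they stand in lower case throughout.

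Tcf21 (gene 21412; chromosome 10, minus strand, 22817263 to 22820143) had 6 peaks within 100 kb of its TSS, the most of the 9 genes. Of 21000 protein-coding genes, 2.88% had at least 6 peaks in the same window. Summed over the 6 peaks, the input held 43 counts, ChIP replicate 1 held 294 and ChIP replicate 2 held 302, which gave ratios to input of 6.84 and 7.02. Of these counts, 10, 89 and 91 lay in the Tbpl1 promoter peak described last, so the sums describe the window and not the Tcf21 gene.

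Inside the gene lay 2 peaks. The peak at chr10:22819448-22819747, 396 bp downstream of the TSS and in a coding exon, had 11 input counts, 67 counts in ChIP replicate 1 and 71 in ChIP replicate 2. Both ChIP libraries were over the input, with ratios of 6.09 (95% interval 3.20 to 12.8) and 6.45 (3.40 to 13.5). The peak at chr10:22817607-22817906, 2237 bp downstream and over the end of the coding sequence, with 130 of its 300 bp in the 3′ untranslated region, had 11 input counts, 63 in ChIP replicate 1 and 53 in ChIP replicate 2. Its ratios of 5.73 (2.99 to 12.1) and 4.82 (2.49 to 10.2) overlapped those of the first peak, so the pair could not be separated at this depth. These intervals are exact binomial (Clopper-Pearson) intervals carried over to a ratio of counts, and they cover counting error only. A predicted transcript, Gm10824, also covers both peaks.

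The 3 distal peaks nearest to Tcf21 were lower. The peak 92983 bp upstream, at chr10:22913126-22913425, had 4 input counts, 30 in ChIP replicate 1 and 36 in ChIP replicate 2. The peak 55511 bp upstream, at chr10:22875654-22875953, had 6, 24 and 34 in the same order. The peak 41784 bp downstream, at chr10:22778060-22778359, had 1, 21 and 17. All 3 lay outside any gene, and in each the ChIP counts stood above the input but below those of the 2 peaks in the gene. With 1 input count, the ratios of the last peak, 21.0 and 17.0, had intervals of 3.38 to 868 and 2.66 to 710, so its place at percentile 95.1 of all peaks by ratio rests on a single read.

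The remaining peak in the Tcf21 window belonged to another promoter. It lay at chr10:22731813-22732112, 88031 bp downstream of the Tcf21 TSS and 366 bp upstream of the TSS of Tbpl1, which encodes a TBP-like factor. It had 10 input counts, 89 in ChIP replicate 1 and 91 in ChIP replicate 2, ratios of 8.90 (4.62 to 19.2) and 9.10 (4.73 to 19.6). By summed ChIP counts it ranked 295 of 10069, ahead of the 2 peaks inside Tcf21, which ranked 811 and 1423.

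Twist2 (gene 13345; chromosome 1, plus strand, 91801461 to 91848034), a bHLH factor of dermal and other mesenchyme, had 3 peaks, all nearest to its own TSS. The peak 172 bp upstream of the TSS, at chr1:91800990-91801289, had 6 input counts, 45 in ChIP replicate 1 and 48 in ChIP replicate 2. The peak in its intron, 43289 bp downstream at chr1:91844750-91845049, had 8, 69 and 42. The peak 113315 bp downstream, past the end of the gene at chr1:91914776-91915075, had 7, 66 and 65. Both ChIP libraries were above the input in all 3 peaks, and the ChIP replicates stood furthest apart at the intronic peak, with ratios of 8.63 (4.14 to 20.8) and 5.25 (2.43 to 12.9). The ratios were 7.50 (3.19 to 21.5) and 8 (3.42 to 22.9) at the promoter, and 9.43 (4.33 to 24.4) and 9.29 (4.26 to 24) at the far peak, so the intervals of all 3 peaks overlapped. The last peak lay outside the 100 kb window and was taken only because Twist2 was the nearest curated gene. When predicted transcripts were added, its nearest gene became Gm46242.

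Twist1 (gene 22160; chromosome 12, TSS at 33957671), the close relative of Twist2, had no peak within 100 kb. The nearest peak to its TSS lay 527613 bp away, nearest to Twistnb, and had 10 input counts, 47 in ChIP replicate 1 and 41 in ChIP replicate 2. Hand1 (gene 15110; chromosome 11, TSS at 57832147), a factor of extra-embryonic and cardiac tissue, had none either. The nearest peak there lay 130409 bp away, nearest to Larp1, with 6, 33 and 31 counts. Of the peaks left out, this was the closest to the 100 kb limit. Just inside that limit lay the Tcf21 peak 92983 bp upstream and a Tcf3 peak 91911 bp downstream.

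Hand2 (gene 15111; chromosome 8, plus strand, TSS at 57320983), a factor of heart, limb and sympathetic neurons, had a single peak. It lay 20038 bp downstream at chr8:57341021-57341320, in an intron of the non-coding gene Hdnr, whose TSS was the nearest. It had 8 input counts, 39 in ChIP replicate 1 and 20 in ChIP replicate 2. Both ChIP counts exceeded the input, with ratios of 4.88 (2.25 to 12.1) and 2.50 (1.05 to 6.56), and the peak did not pass the test against input described below.

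Msc (gene 17681; chromosome 1, minus strand, TSS at 14755966), encoding musculin, a repressor that acts together with Tcf21 in facial muscle, also had a single peak. It lay 39174 bp upstream at chr1:14795140-14795439, outside any gene, and the next peak was 485044 bp away. It had 5 input counts, 18 in ChIP replicate 1 and 33 in ChIP replicate 2. The ratios to input were 3.60 (1.29 to 12.4) and 6.60 (2.56 to 21.7). The higher ChIP count was in the library with the lower total, and among the 22 peaks the gap between the ChIP libraries was the least likely by counting error here.

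Tcf4 (gene 21413; chromosome 18, plus strand, 69344492 to 69687967), an E protein gene with 3 curated TSSs, had 4 peaks. The peak 122 bp upstream of a TSS, at chr18:69344071-69344370, had 6 input counts, 73 in ChIP replicate 1 and 65 in ChIP replicate 2. Its ratios were 12.2 (5.33 to 34.2) and 10.8 (4.72 to 30.6), and its 138 summed ChIP counts equalled those of the Tcf21 peak 396 bp downstream of the TSS. The other 3 Tcf4 peaks were taken by the nearest TSS only and were lower. In introns, the peak at chr18:69592399-69592698 (246239 bp from the nearest Tcf4 TSS) had 2, 29 and 24 counts, and the peak at chr18:69555658-69555957 (209498 bp) had 7, 20 and 11. The latter was the weakest of the 22, at rank 9755 by summed ChIP counts, and the interval of its second ratio, 1.57 (0.556 to 4.78), included a ratio of 1. The peak 146029 bp upstream, at chr18:69198164-69198463, had 7, 32 and 25 counts, and its nearest gene became Gm31294 when predicted transcripts were added.

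Tcf12 (gene 21406; chromosome 9, minus strand, 71844252 to 72111819), the E protein HEB, had 3 peaks, all upstream and all low. At the promoter, 166 bp upstream at chr9:72111985-72112284, the input had 6 counts, ChIP replicate 1 had 23 and ChIP replicate 2 had 22. The peak 21584 bp upstream, at chr9:72133403-72133702, had 2, 25 and 24. The peak 58024 bp upstream, at chr9:72169843-72170142, had 6, 19 and 16. The ratios of this last peak were 3.17 (1.22 to 9.69) and 2.67 (0.991 to 8.32), and the second interval included a ratio of 1. The ChIP counts of the 3 peaks were alike and the input counts were not, so the ratios of the middle peak, 12.5 (3.12 to 109) and 12 (2.98 to 105), were set by 2 input reads. By summed ChIP counts the 3 ranked between 7522 and 9285 of 10069.

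Tcf3 (gene 21423; chromosome 10, minus strand, 80409541 to 80433635), which encodes the E proteins E12 and E47, had 4 peaks, with 34 input counts, 415 in ChIP replicate 1 and 342 in ChIP replicate 2 in all. The ratios of these sums were 12.2 and 10.1, but they describe the window, since 3 of the 4 peaks lay at Mbd3 and Adamtsl5. The 1 peak whose nearest TSS was that of Tcf3 lay 10789 bp upstream, outside any gene, at chr10:80444424-80444723. It had 12 input counts, 146 in ChIP replicate 1 and 122 in ChIP replicate 2, the highest ChIP counts of the 22 peaks, and ranked 66 of 10069. Its ratios were 12.2 (6.76 to 24.1) and 10.2 (5.61 to 20.2).

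The other 3 Tcf3 peaks lay at neighbouring genes. The peak 34707 bp downstream, at chr10:80398629-80398928 in an intron of Mbd3, 603 bp from the TSS of that gene, had 5 input counts, 105 in ChIP replicate 1 and 77 in ChIP replicate 2. Mbd3 encodes a subunit of the NuRD repressor complex. The peak 84968 bp downstream, at chr10:80348368-80348667 over the TSS of Adamtsl5, had 7, 73 and 55. The peak 91911 bp downstream, at chr10:80341425-80341724 in an intron of Adamtsl5, had 10, 91 and 88. Their ratios ran from 7.86 (3.57 to 20.5), in ChIP replicate 2 at the Adamtsl5 TSS, to 21.0 (8.72 to 66), in ChIP replicate 1 at the Mbd3 intron. Both ChIP libraries were far above the input at all 3, so most of the counts that the window gave to Tcf3 lay at other genes.

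**Figure D1:**
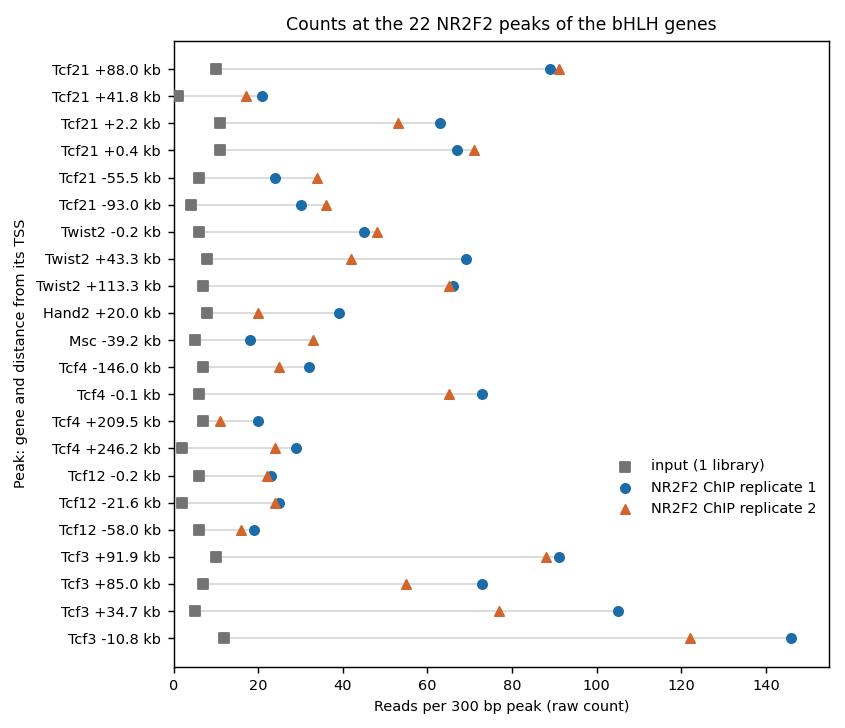
Raw read counts (horizontal axis, reads per 300 bp) at the 22 peaks (vertical axis, named by gene and by distance from its TSS) in the input and the 2 NR2F2 ChIP libraries. Both ChIP counts lie to the right of the input at every peak, from 20 and 11 over 7 at the lowest Tcf4 peak to 146 and 122 over 12 at the Tcf3 peak 10.8 kb upstream.

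The counts by peak show that both ChIP libraries exceeded the input at 22 of 22 peaks, where 99.9% of all peaks did so. ChIP replicate 1 had the higher raw count at 16 and ChIP replicate 2 at 6, and after scaling to the totals each was higher at 11. The ChIP libraries were compared peak by peak with exact binomial tests (two-sided), adjusted over all 10069 peaks by the Benjamini-Hochberg method, which called 0 of the 22 peaks (0.0993% of all peaks), with a lowest adjusted p of 0.373. At an unadjusted p under 0.05 the count was 1 of 22, the Msc peak (exact binomial p = 0.0107), where 8.83% of all peaks passed. What is tested there is a pair of libraries of the same condition.

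**Figure D2:**
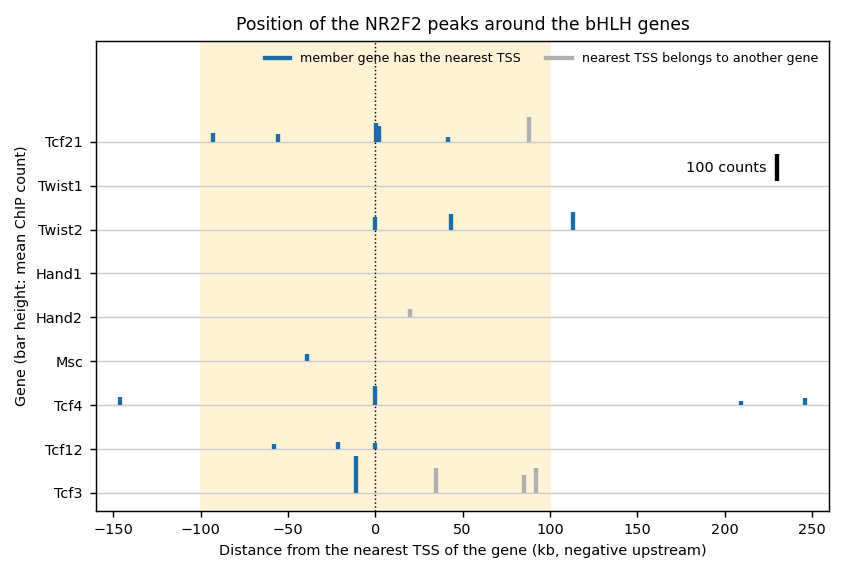
Position of the 22 peaks relative to the nearest TSS of their gene (horizontal axis, kb, negative upstream), with 1 line for each of the 9 genes, the 100 kb window shaded and the bar height in proportion to the mean ChIP count (black scale bar, 100 counts). Blue bars mark the 17 peaks for which the gene has the nearest TSS and grey bars the 5 peaks nearer to another gene. Twist1 and Hand1 have no bar.

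As the plot of positions shows, the peaks were spread from the TSS to the ends of the window. Of the 22 peaks, 5 overlapped the nearest TSS of any gene or lay up to 1 kb upstream of it, against 36.0% of all placed peaks, and 3 of the 5 were at promoters of Twist2, Tcf4 and Tcf12 themselves. A further 8 were downstream of the nearest TSS in the body of that gene (34.0% of all), 9 were intergenic (25.7%) and 0 were 1 to 10 kb upstream (4.34%). By the feature at the peak centre, 2 were in coding exons, both of Tcf21, 6 in introns and 14 outside any gene, among them the peak over the TSS of Adamtsl5, which overlapped 81 bp of an untranslated exon. A peak within 100 kb was found for 7 of the 9 genes, where 69.7% of protein-coding genes had one, so the count was near the background.

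Each peak was compared with the input in 1 edgeR quasi-likelihood fit over all peaks that took the libraries as equally deep. The test called 19 of the 22 peaks above input at a Benjamini-Hochberg adjusted p under 0.05, where 80.7% of all peaks were called. Each SE printed with a log2 ratio from edgeR is that ratio, without its sign, divided by the square root of the F statistic. The p-values do not follow from such an SE by a normal distribution. The 3 peaks not called were those of Hand2 (log2 ratio 1.87 ± 0.72 SE, edgeR adjusted p = 0.102), Msc (2.32 ± 0.72, 0.0692) and Tcf4 209498 bp from its TSS (1.13 ± 0.61, 0.179). Over the alternative fits that gave them an adjusted p, 5, 5 and 4 in number, it ranged from 0.000333 to 0.387, from 0.000127 to 0.251 and from 0.0488 to 0.849. If the ChIP libraries were 2 times deeper than the input, 0 of the 22 and 0 of all peaks were called at the adjusted threshold (14 of the 22, and 39.0% of all peaks, at an unadjusted p under 0.05, edgeR), so these calls rest on the assumption of equal depth. That assumption also left the 2 ChIP libraries unscaled to each other. With these scaled by their totals at peaks, 21 of the 22 and 9853 of all peaks were called. The Hand2 and Msc peaks passed there (edgeR adjusted p = 0.000333 and 0.000127).

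Because the whole depth is unknown, each peak was also compared with the typical peak, in an edgeR fit scaled by TMM, which needs no depth. Of the 22 peaks, 1 was called above the typical ratio (1.53% of all peaks) and 0 below it (0.0497%). At an unadjusted p under 0.05, 3 peaks were above (7.89% of all peaks) and 0 below (2.55%). The called peak was that in the Mbd3 intron of the Tcf3 window, with ratios of 21.0 (8.72 to 66) and 15.4 (6.32 to 48.8) and a log2 ratio 1.86 ± 0.54 (SE) above the typical peak (edgeR adjusted p = 0.0423, range over alternatives 0.0423 to 0.256). It was not called by DESeq2 (log2 ratio 1.84, adjusted p = 0.256), with DESeq2 size factors in edgeR (1.83, 0.256) or without TMM (edgeR, 1.74, 0.0890), so the call was lost while the ratio moved little. The peak 10789 bp upstream of Tcf3 was 1.16 ± 0.38 above the typical peak (edgeR adjusted p = 0.0935, range over alternatives 0.0108 to 0.335) and was called when only peaks with at least 10 input counts were tested.

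**Figure D3:**
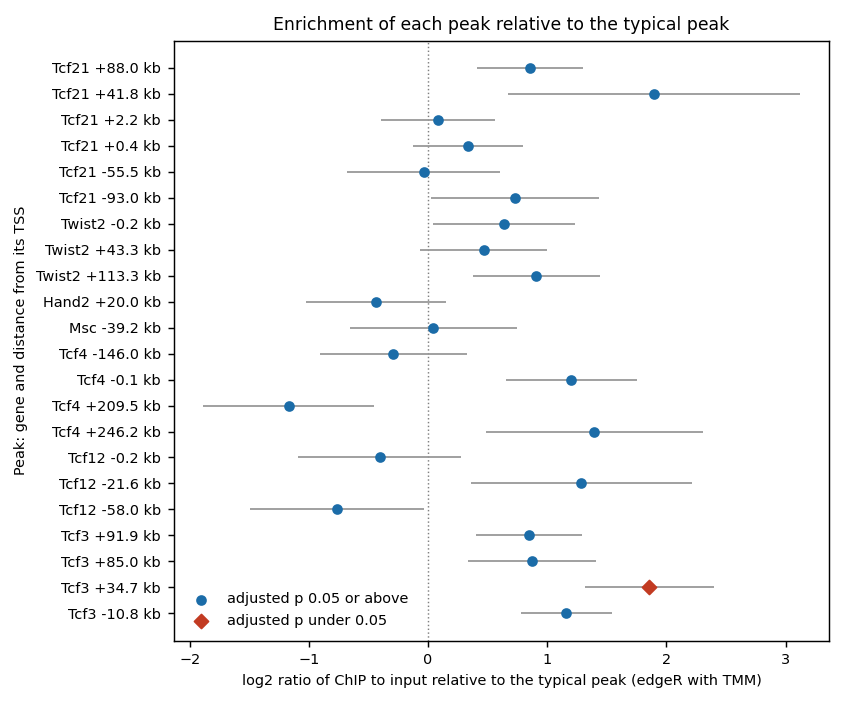
Log2 ratio of ChIP to input at each of the 22 peaks relative to the typical peak (horizontal axis; the dotted line at 0 is the typical peak), from the edgeR fit with TMM, with bars of 1 SE. The 1 peak with an adjusted p under 0.05, in red, is the Tcf3 peak in the Mbd3 intron, and the widest bar belongs to the Tcf21 peak with 1 input count.

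None of the 6 Tcf21 peaks passed in this fit. The 2 peaks within the gene were 0.33 ± 0.46 and 0.08 ± 0.48 (SE, log2) above it, and the peak 55511 bp upstream was at -0.04 ± 0.64, with edgeR adjusted p-values of 0.899, 0.983 and 0.994. The peaks 92983 bp upstream and at Tbpl1 were 0.73 ± 0.71 and 0.85 ± 0.45 above, and that with 1 input count was 1.89 ± 1.22 above (edgeR adjusted p = 0.835, 0.497 and 0.656). Among the other genes, the Tcf4 promoter was 1.2 ± 0.55 above the typical peak and passed at an unadjusted p of 0.0295 but not after adjustment (edgeR adjusted p = 0.387). The Twist2 peaks were 0.47 to 0.91 above on the log2 scale, and the Tcf12 promoter was at -0.41 ± 0.68. At the foot of the range were the Tcf4 peak 209498 bp from its TSS, at -1.17 ± 0.72, the Tcf12 peak 58024 bp upstream, at -0.77 ± 0.73, and the Hand2 peak, at -0.44 ± 0.59, with edgeR adjusted p-values of 0.626, 0.827 and 0.898. The 2 peaks of Tcf12 and Tcf4 with 2 input counts were 1.28 ± 0.93 and 1.39 ± 0.91 above the typical peak, with adjusted p-values of 0.718 and 0.661. Adjusted p-values in this fit ran from 0.0423 to 0.994 over the 22 peaks.

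Over the 22 peaks the median ratio of ChIP to input was 7.51 ± 0.111 (SD of the 2 ChIP libraries, 0.5 added to each count), where the median of all peaks was 4.75. Of the 22, 15 were above the median ratio of all peaks and 7 below, and at percentiles above 75 lay 12 and below 25 lay 4. The median input count of the 22 was 6.5 against 7 for all peaks, and the median ChIP counts were 42 against 37 and 39 against 31. Taken instead from the mean of both ChIP libraries at each peak, the median ratio was 7.34 over the 22 peaks and 4.73 over all peaks, 6.59 over the 17 peaks nearest to a bHLH gene and 8.60 over the 5 peaks nearer to another gene. These medians describe the list, and no test was made of them.

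Half-sites and E-boxes were searched on both strands of each 300 bp peak. A half-site, AGGTCA or GGGTCA, was in 17 of the 22 peaks, or 77.3%, where 58.9% of the 10064 placed peaks held one. There were 28 half-sites, and 13 of them lay within 50 bp of a peak centre. In the central 100 bp, 9 peaks held one (40.9%, against 32.4% of all peaks). The peak with the most was the Adamtsl5 intron in the Tcf3 window, with 5.

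A direct repeat of the half-site on 1 strand with 0 to 5 bp between, the arrangement NR2F2 is known to bind, was in 2 peaks (9.09%, against 4.47%). Both lay in the Tcf3 window and are shown because they are the only 2 peaks of the 22 with the spaced arrangement.
Adamtsl5 intron, bases 142 to 154 of the peak, 1 bp between: GGGTCAAAGGTCA
Mbd3 intron, bases 64 to 77, 2 bp between: GGGTCAAAGGGTCA
Adamtsl5 intron, bases 120 to 134, 3 bp between: GGGTCACTTGGGTCA
The Mbd3 intron, the peak called above the typical ratio, held the second of these, while the peak with the highest ChIP counts, 10789 bp upstream of Tcf3, held no half-site in its 300 bp. The extended site, AGAGGTCA or AGGGGTCA, was in 4 peaks (18.2%, against 10.5%): those of Tcf21 92983 bp upstream, Twist2 172 bp upstream, Msc, and Tcf3 91911 bp downstream. No half-site was found in 5 peaks, among them the Tcf12 promoter. A match describes the letters of the window and does not show where the factor bound.

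The E-box, the site of the bHLH proteins themselves, was in 16 of the 22 peaks (72.7%), where 73.3% of all peaks held one, so the share was close to the background. The 22 peaks held 45 E-boxes, the most being 6 in the Msc peak. Neither of the 2 peaks inside Tcf21 held one, while the Tcf21 peak 55511 bp upstream held 5. The spellings CAGCTG or CATCTG or CAGATG or CATATG were in 11 peaks (50%, against 42.1%). Both motifs were in 11 peaks and neither in 0.

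**Figure D4:**
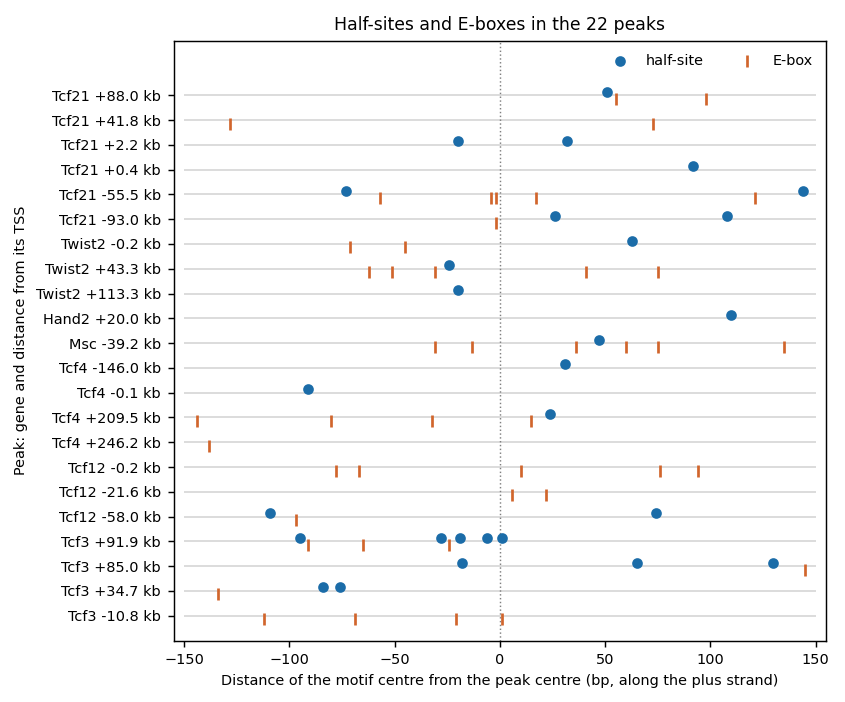
Half-sites (circles) and E-boxes (vertical marks) in each of the 22 peaks, by the distance of the motif centre from the peak centre (horizontal axis, bp along the plus strand). The 5 peaks without a circle hold no half-site and the 6 without a mark no E-box, and the peak 91.9 kb downstream of Tcf3 holds 5 half-sites.

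The 4 Id genes, whose proteins bind E proteins, all had a peak within 100 kb (69.7% of protein-coding genes), 17 peaks in total, of which 4 were nearest to an Id gene. Their median ratio, taken from the mean of both ChIP libraries, was 6.78, where it was 7.34 over the 22 peaks of the bHLH genes and 4.73 over all peaks. Against input 14 of the 17 were called (80.7% of all peaks), 1 was called above the typical ratio (1.53%) and 0 below (0.0497%), so the count above input was near the background. At an unadjusted p under 0.05 (edgeR), 7 of the 17 departed from the typical ratio in either direction, where 10.4% of all peaks did. That difference was not tested. The peak called above the typical ratio lay 4451 bp downstream of Id3, at chr4:136148273-136148572, with 5 input counts, 132 in ChIP replicate 1 and 100 in ChIP replicate 2. It was 2.21 ± 0.51 (SE, log2) above the typical peak (edgeR adjusted p = 0.00221). Id1 had a peak over its coding exon 31 bp from the TSS with 12, 75 and 71 counts, and Id2 had one 2406 bp upstream with 2, 36 and 37. At Id4 the peaks in the window were nearer to other genes, and that 12648 bp downstream, with 13, 26 and 11 counts, was at -1.81 ± 0.56 (SE, log2) relative to the typical peak and did not pass the test (edgeR adjusted p = 0.0625).

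Of 22 other tissue-restricted bHLH genes, 17 had a peak within 100 kb, where 69.7% of protein-coding genes had one, and 5 had none: Bhlha9, Ferd3l, Myf5, Myf6 and Myod1, the last 3 being regulators of skeletal muscle. These genes had 39 peaks with a median ratio of 4.74, and for 4 genes, Tcf23, Tcf24, Mesp2 and Atoh8, a peak was nearest to their own TSS. The edgeR fits called 30 of the 39 above input (80.7% of all peaks), 1 above the typical ratio (1.53%) and 0 below (0.0497%), so here too the count above input was near the background. That 1 was in an intron of Atoh8, at chr6:72216684-72216983, with 3, 77 and 68 counts, 2.26 ± 0.66 (SE, log2) above the typical peak (edgeR adjusted p = 0.0423). The alternative fits were not read for the peaks of the Id genes and of these other bHLH genes, so their calls come from the main fit alone. By ChIP counts the highest of the 39 was a Tcf23 peak 6291 bp downstream of its TSS, in an untranslated exon, with 13, 94 and 76 counts. At an unadjusted p under 0.05 (edgeR), 4 of the 39 departed from the typical ratio in either direction (10.4% of all peaks).

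The peaks most like the one 396 bp downstream of the Tcf21 TSS, by Euclidean distance of log2(count + 1) over the 3 libraries, were in a coding exon of Mov10 (11 input counts, 68 in ChIP replicate 1 and 68 in ChIP replicate 2), in an intron of Msra (11, 69 and 66) and in an intron of Mesd (11, 62 and 69), at distances of 0.065, 0.112 and 0.117.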

How the data were processed

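Reads were counted in NR2F2 ChIP (2 libraries) and input (1 library) at the same 10069 peaks. The deposited values are raw counts per peak that the authors made on mm10. Their processing notes name Trim Galore 0.6.7, Bowtie2, Picard 1.110, HOMER 4.11.1 and bedtools. Peaks were called on merged ChIP reads, so each was selected for ChIP signal, and the sources used here do not give how reads were assigned to peaks. Totals at peaks were 73251, 426784 and 364261; at a median of 7 input counts, ratios of single peaks are imprecise.

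Peaks were placed on GRCm38 with 45756 curated RefSeq transcripts, without 5 peaks on unplaced contigs. edgeR 4.0.16 (R 4.3.3) quasi-likelihood tests ran over all peaks with no filter on counts, with equal depth (above input) or TMM (typical peak), and with Benjamini-Hochberg adjustment at 0.05. Ratios used 0.5 added to each count, apart from the ratios of raw counts printed with intervals. DESeq2 1.42.0, other depths and scalings, a minimum of 10 input counts, a robust fit, a 50 kb window, other motif spellings and leaving out each ChIP library were the alternatives. The fits were also run on simulated counts as a self-test, which gives no support to the calls above. SciPy 1.17.1 gave the exact intervals and binomial tests. Named were all 9 genes and their peaks, the genes nearest to those peaks, the Id genes, peaks among the 5 with the most ChIP counts in the related lists (those at Id3 and Tcf23), and the 3 peaks most like the strongest peak nearest to Tcf21. The Id1, Id2, Id4 and Atoh8 peaks were named outside this rule, after their values were seen. The genes and lists were chosen with earlier results of these data known.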

Additional observations from a re-analysis of the deposited data

How the results depend on the processing

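No paired analysis was possible because the input carries no replicate number, and its single library gives no spread of its own. The number of peaks above input, 19, fell to 0 when the ChIP libraries were taken as 2 times deeper (14, and 39.0% of all peaks, at an unadjusted p under 0.05, edgeR), and to 5 with at least 10 input counts, where only 5 of the 22 peaks were tested; it was 15 with DESeq2 (20 peaks had an adjusted p), 22 with shallower ChIP libraries and 21 with a robust fit. The 1 peak above the typical ratio became 0 with DESeq2 (4 peaks had an adjusted p, 1 passed unadjusted), 0 with DESeq2 size factors in edgeR (3 unadjusted) and 0 without TMM (2 unadjusted), which moved the median of all peaks to -0.10 on the log2 scale; with at least 10 input counts it was 1, but another peak, that 10789 bp upstream of Tcf3. Over all peaks, the calls above and below the typical ratio were 154 and 5 in edgeR, 22 and 0 in DESeq2, 39 and 0 with DESeq2 size factors, 102 and 7 without TMM, and 58 and 4 with at least 10 input counts; the calls above input were 8122, 0 with deeper ChIP libraries, 6146 with DESeq2, 9858 with shallower ChIP libraries, 9816 with a robust fit and 2149 of 2427 with at least 10 input counts, so the counts over the 22 peaks moved with those over all peaks. The median ratio of 7.51 became 4.28 with 5 added to each count (all peaks 3.28) and 1.40 with counts divided by the library totals at peaks (all peaks 0.880); without either ChIP library it was 7.43 to 7.59. With 5 added, 19 single-peak ratios moved by more than their spread; leaving out 1 of 2 ChIP libraries always moves a mean by less than their SD and so gives no measure of stability. Peaks with a half-site numbered 17, but 9 in the central 100 bp, 4 with the extended site and 2 with a direct repeat, and peaks with an E-box 16, but 10 in the central 100 bp. The rule gave 22 peaks, 20 with predicted transcripts, 19 with a 50 kb window and 17 by the nearest TSS alone. With the 2 ChIP libraries scaled to each other, 21 of the 22 peaks and 9853 of all peaks were called above input. The cause of the changes with scaling was not tested. Depth limits most the 3 peaks with at most 2 input counts.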

Other observations

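Repeat-masked sequence, marked in lower case in the RefSeq genome, was in 13 of the 22 peaks, where 48.4% of placed peaks held some. The largest masked share was 34.3% of the peak 10789 bp upstream of Tcf3, the peak with the highest ChIP counts and no half-site; its other features were 60.7% GC and 2 CpG dinucleotides. The next were the Tcf21 peaks 92983 and 55511 bp upstream, at 16.0% and 15.7%, which had 44.3% and 45.3% GC. The median GC content was 61.7% over the 22 peaks and 60.7% over all peaks. A GATA site, AGATAA or TGATAA on either strand, was in 4 of the 22 peaks (18.2%, against 11.4% of all peaks): the Tcf21 peak 55511 bp upstream, the Msc peak, the Tcf12 peak 58024 bp upstream and the Mbd3 intron in the Tcf3 window.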
